A study of Drosophila melanogaster with 9 samples.

Results

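The MCM2-7 genes encode the subunits of the replicative helicase, and 5 of the 6 were read here on arrays of Drosophila melanogaster eye discs. The members were taken by name, as every probe set annotated to Mcm2, Mcm3, dpa (also named Mcm4), Mcm5, Mcm6 or Mcm7. The annotation used gave 1 probe set each to Mcm2, Mcm3, dpa, Mcm5 and Mcm6, among 11983 genes with a probe set of their own. Mcm7 was not analysed here.

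The MCM2-7 proteins form a ring that is loaded around DNA at origins during G1 by the origin recognition complex, Cdc6 and Dup (the fly Cdt1). In S phase Cdc45 and the GINS complex join the ring and turn it into the active helicase that unwinds DNA ahead of the polymerases. The genes are known targets of E2F, the transcription factor that retinoblastoma family proteins such as Rbf bind and restrain. In the eye disc, an epithelial sac of the larva from which the eye develops, cells divide ahead of the morphogenetic furrow, arrest in G1 within it, and in part enter a further S phase, the second mitotic wave, behind it. The name dpa stands for disc proliferation abnormal, after the failure of imaginal disc growth in its mutants.

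RNA came from eye discs of larvae of the third instar and was hybridized to Affymetrix Drosophila Genome 2.0 arrays, 3 biological replicates in each of 3 groups. The rbf1 mutant discs were labelled rbf1120a Gal4, the PSC overexpressing discs w1118 psc, and the control discs w1118 Gal4. Posterior sex combs (PSC) belongs to the Polycomb group, whose complexes keep genes silent. The Gal4 driver, the sex of the larvae and the Rbf function that the rbf1120a allele leaves are not given in the sources used here, and the PSC labels do not mention Gal4. The series compares each altered genotype with control discs. Stock goes with the group, so genotype and stock background cannot be told apart. Values are log2 intensities computed by the authors with RMA, a method that subtracts background, equalizes the arrays and summarizes the probes of a set. Levels are not comparable between probe sets, so each gene is compared only with itself across arrays. An array is called by its group and number, such as control 1.

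Psc was 12.53, 12.49 and 12.50 on the PSC arrays and 9.80 to 9.86 on the control arrays. Rbf read 9.43, 9.51 and 9.31 on the rbf1 arrays and 9.83, 9.85 and 9.67 on the control arrays. Its log2 change was -0.37 (SE 0.096, limma adjusted p = 0.0479), and the call was lost when control 1, control 2, PSC 1 or any 1 rbf1 array was left out (adjusted p from 0.071 to 0.145). It was also lost with arrays centred on their medians (0.0988), in an unmoderated test (0.118), with the glue genes below as a covariate (0.097), with every probe set tested (0.0556) and without the arrays with high glue genes (0.223). The mean of 8 eye disc markers lay between 11.37 and 11.55 on all 9 arrays. The mean of 6 salivary glue genes, which mark the salivary gland, varied within every group: 6.40, 11.75 and 7.11 on the rbf1 arrays, 9.53, 10.08 and 12.24 on the PSC arrays, and 6.52, 13.10 and 13.03 on the control arrays. The mean of 3 germline markers lay between 4.55 and 4.83 on all arrays, with bam at 5.66 to 6.38 and vas and zpg at 3.72 to 4.33.

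All 5 measured MCM2-7 genes rose in rbf1 mutant discs against control discs, by 2.28-fold to 2.71-fold. In PSC overexpressing discs none of them passed the test, nor did any have an unadjusted p under 0.05, and their levels were 1.04-fold to 1.14-fold those of control. In RNA from whole discs, more cells in a state that expresses these genes and more RNA per cell cannot be told apart. The median member changed by 1.32 on the log2 scale in the rbf1 mutant and by 0.10 with PSC, where the medians of all genes were -0.0042 and 0.0091. The test was limma across all 11983 genes, with Benjamini-Hochberg adjustment and a threshold of 0.05. Of all genes, 6.31% were called higher and 3.92% lower in the rbf1 mutant, a split of 756 to 470 genes that became 1041 to 306 with arrays centred on their medians and 559 to 603 when centred on the median of the genes tested. In PSC discs 1.42% were called higher and 2.38% lower, and 16.5% had an unadjusted p under 0.05. Calls that were also at least 2-fold higher made up 0.918% of genes in the rbf1 comparison, and all 5 members were among them.

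**Figure D1:**
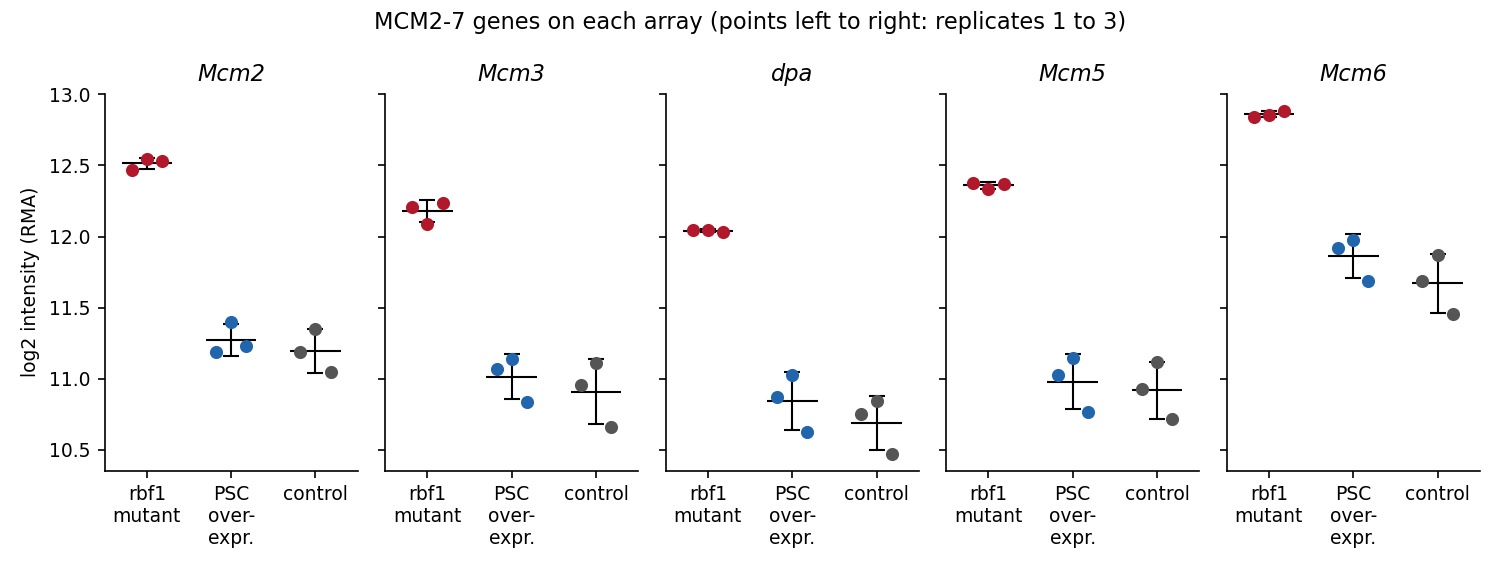
The log2 intensity of each MCM2-7 gene on each array is plotted by group, with points for replicates 1 to 3 from left to right, a line at the group mean and bars of 1 SD (n = 3). The rbf1 mutant points of every gene lie above all of its PSC and control points, which overlap each other.

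Mcm2 and Mcm5 flank the gate through which DNA is thought to enter the ring, as worked out in yeast. Mcm2 read 12.47, 12.54 and 12.53 on the rbf1 arrays, 11.19, 11.40 and 11.23 on the PSC arrays, and 11.19, 11.35 and 11.05 on the control arrays. The rbf1 arrays lay at least 1.12 above every control array, while PSC and control arrays overlapped. All 3 rbf1 arrays lay above all 3 control arrays for 15.7% of all genes. Mcm2 rose in the rbf1 mutant by 1.32 (log2, SE 0.085), which is 2.49-fold (limma adjusted p = 6.18e-05). It had the smallest p of the 5 genes, at rank 39 of all genes tested. In PSC discs the difference was 0.076 (SE 0.085, limma adjusted p = 0.725).

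Mcm5 read 12.38, 12.33 and 12.37 on the rbf1 arrays, 11.03, 11.14 and 10.77 on the PSC arrays, and 10.93, 11.12 and 10.71 on the control arrays. The rbf1 arrays again stood clear of all the others, by at least 1.19. Mcm5 had the largest rise of the 5, by 1.44 (SE 0.118), or 2.71-fold (95% interval 2.25 to 3.27, limma adjusted p = 0.000179), which placed it 48th among all genes by log2 change. It also had the smallest difference of the 5 in PSC discs, 0.060 (SE 0.118, limma adjusted p = 0.852).

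Mcm3 sits beside Mcm5 in the ring. It read 12.21, 12.09 and 12.24 on the rbf1 arrays, 11.07, 11.14 and 10.84 on the PSC arrays, and 10.96, 11.11 and 10.66 on the control arrays. Its rbf1 arrays were the most spread of the 5 genes, with an SD of 0.077, and still lay 0.98 or more above every control array. The rise in the rbf1 mutant was 1.27 (SE 0.121), or 2.41-fold (limma adjusted p = 0.000375). The difference in PSC discs was 0.10 (SE 0.121, limma adjusted p = 0.735).

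The genes dpa and Mcm6 encode subunits of the part of the ring that, with Mcm7, unwinds DNA on its own in vitro. For dpa the rbf1 arrays read 12.05, 12.05 and 12.03, against 10.88, 11.03 and 10.62 on the PSC arrays and 10.75, 10.84 and 10.47 on the control arrays. The 3 mutant arrays were closer together than any pair of control arrays. The rise of dpa in the rbf1 mutant was 1.35 (SE 0.118), or 2.55-fold (limma adjusted p = 0.000243). In PSC discs dpa differed from control by 0.15 (SE 0.118, limma adjusted p = 0.594).

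Mcm6, known in the fly also for female sterile alleles, read 12.84, 12.86 and 12.89 on the rbf1 arrays, 11.92, 11.98 and 11.69 on the PSC arrays, and 11.69, 11.87 and 11.46 on the control arrays. The rbf1 arrays were 0.97 or more above the controls. Mcm6 had the smallest rise of the 5 in the rbf1 mutant, 1.19 (SE 0.109), or 2.28-fold (95% interval 1.92 to 2.72, limma adjusted p = 0.000319), and the largest difference in PSC discs, 0.19 (SE 0.109, limma adjusted p = 0.449). The 95% interval of that PSC difference ran from -0.061 to 0.44, so that its upper end was 1.36-fold. For the other members the upper ends in PSC discs lay between 1.21-fold and 1.34-fold. A p that misses the threshold does not show that PSC left the genes unchanged. The intervals rest on 1 spread per gene, pooled over the 3 groups. The median SD of a member was 0.023 on the rbf1 arrays, 0.16 with PSC and 0.20 in control. The PSC intervals are therefore narrower than the PSC and control arrays alone would give, and larger changes remained possible.

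The difference between both effects was tested directly by setting the rbf1 arrays against the PSC arrays. All 5 genes were higher in rbf1 mutant discs, where 6.91% of all genes were called higher. The log2 differences were 1.38 for Mcm5, 1.24 for Mcm2, 1.20 for dpa, 1.16 for Mcm3 and 1.0 for Mcm6. The limma adjusted p-values ran from 8.37e-05 for Mcm2 to 0.000807 for Mcm6. In each gene the 3 rbf1 arrays lay above the 3 PSC arrays, by 0.86 or more, and 16.2% of all genes did so. The comparisons with control share the same 3 control arrays, so their values are not independent of each other.

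**Figure D2:**
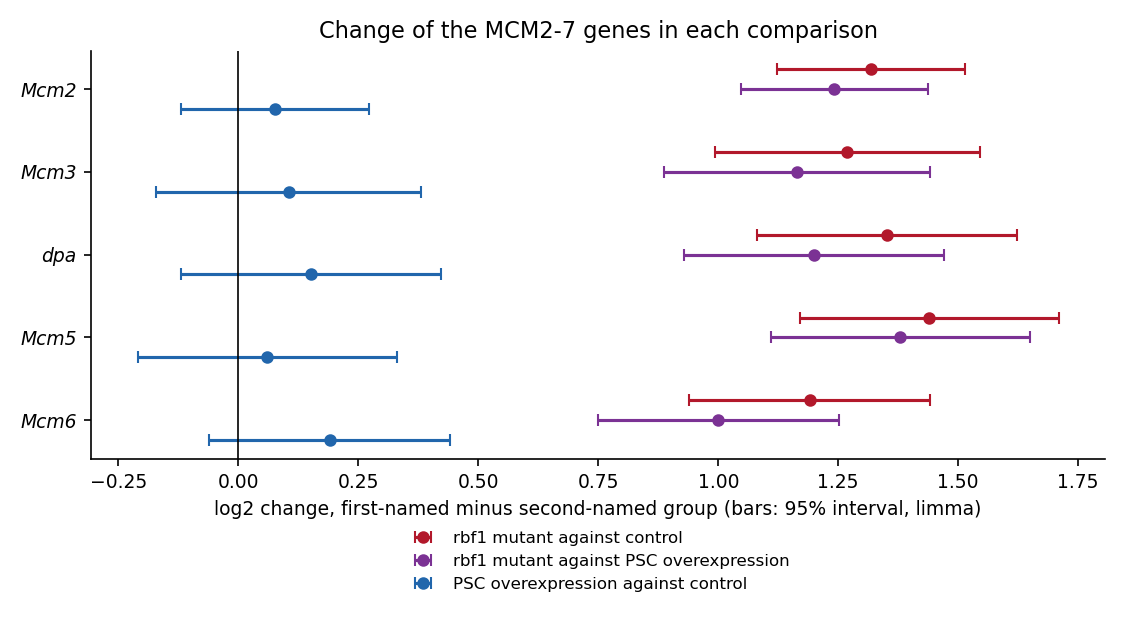
The log2 change of each MCM2-7 gene is plotted for the 3 comparisons, as points with 95% intervals from limma. Changes of the rbf1 mutant against control (1.19 to 1.44) and against PSC (1.0 to 1.38) stand clear of 0, and all 5 intervals of PSC against control contain 0.

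The rises of the 5 genes in the rbf1 mutant differed by at most 0.25 on the log2 scale, between Mcm5 and Mcm6. The log2 ratio of Mcm5 to Mcm6 was -0.52 to -0.46 on the rbf1 arrays and -0.76 to -0.74 on the control arrays, so the groups did not overlap. On the PSC arrays the same ratio was -0.92 to -0.83, again outside the control range and on its other side. The change of that ratio was 0.25 in the rbf1 mutant and -0.13 with PSC. Of the 10 pairs among the 5 genes, which share members, 6 had ratios that did not overlap between rbf1 mutant and control arrays, and 3 did not overlap between PSC and control arrays. Among single genes, 28.9% did not overlap between rbf1 mutant and control arrays and 21.7% between PSC and control arrays. These shares are of levels, and none was computed for ratios of other gene pairs, so they are no measure for the pair counts. The ratio of Mcm2 to dpa changed least, by -0.033 in the rbf1 mutant, and its arrays overlapped. These ratios are descriptions and were not tested.

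Within the groups the members also moved together. Control 2 was above its group mean for all 5 genes, by 0.15 to 0.20, and control 3 was below it for all 5, by 0.15 to 0.25. PSC 2 was above its group mean for all 5, by 0.12 to 0.19, and PSC 3 below for all 5, by 0.039 to 0.22. For replicates 1, 2 and 3 the member means were 11.10, 11.26 and 10.87 in control and 11.22, 11.34 and 11.03 with PSC. They were 12.39, 12.37 and 12.41 in the rbf1 mutant. Control and PSC arrays thus had the same order by replicate number, and whether equal numbers share a batch was not tested. The largest deviation of a member on any rbf1 array was -0.087. After group means were subtracted, the Pearson correlations of the 10 pairs over the 9 arrays ran from 0.75 to 0.98, with a median of 0.94. These points share arrays, RNA samples and normalization, and the correlations are descriptions. The 3 lowest were those of Mcm2 with Mcm3, dpa and Mcm5, at 0.75 to 0.78. This was not particular to the members. The median within-group correlation with the member mean was 0.91 for the replication fork genes below, 0.89 for licensing and 0.83 for mitosis genes. It was 0.70 for the eye disc markers, -0.22 for the glue genes and 0.11 for all genes outside the members. Of these last, 331 (2.76%) lay above 0.9.

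The arrays of the rbf1 mutant were less spread than those of the controls for all 5 genes. The median SD of a member was 0.023 in the rbf1 mutant, 0.16 in PSC discs and 0.20 in control discs, where the medians of all genes were 0.079, 0.083 and 0.087. The SD was lower in the rbf1 mutant than in control for 55.9% of all genes. The difference in spread was not tested. The highest value on any array was 14.85, and the members' rbf1 values lay between 12.03 and 12.89. The 14.85 is of another probe set, so it gives no upper limit for the members' sets. Control 2 and control 3, the controls with high glue means (13.10 and 13.03), held the highest and the lowest member mean of their group, 11.26 and 10.87.

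**Figure D3:**
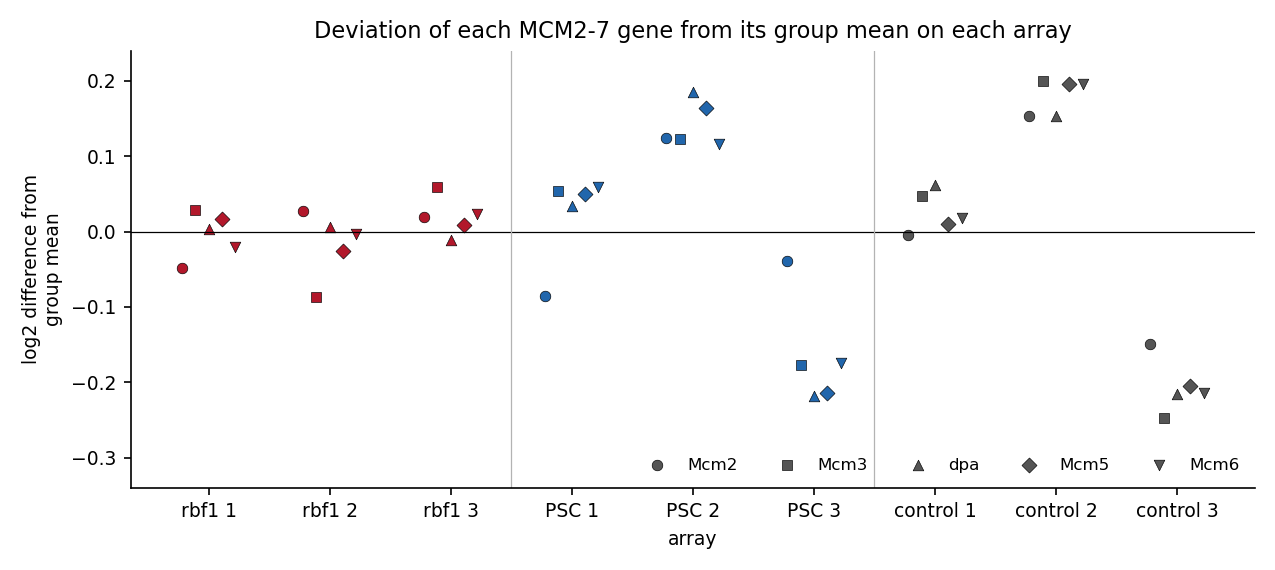
The difference of each MCM2-7 gene from its group mean is plotted on each of the 9 arrays, with a marker per gene. All 5 genes lie above 0 on control 2 and PSC 2 and below 0 on control 3 and PSC 3, and the rbf1 points lie close to 0, the farthest at -0.087.

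The genes whose profile was most like that of the members were ranked by Pearson correlation with the mean of the 5 members over the 9 arrays. The 8 closest were l(2)dtl (0.999), dup (0.998), cutlet, Ctf4, PolE1, PolA2, CG13690 and PolA1 (0.997 for the rest). The gene l(2)dtl encodes Cdt2, which directs destruction of Cdt1 in S phase, and dup encodes Cdt1 itself. The product of cutlet is related to the clamp loader subunit Ctf18. Ctf4 links the helicase to DNA polymerase alpha, whose subunits are PolA1 and PolA2, and PolE1 is the catalytic subunit of polymerase epsilon. The 8 genes changed by 1.06 to 1.78 in the rbf1 mutant and by 0.084 to 0.19 in PSC discs. Above a correlation of 0.95 there were 232 genes, 1.94% of those outside the members.

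The genes that load the ring also rose. Of 9 origin recognition and licensing genes, 6 were measured, and all 6 rose in rbf1 mutant discs, with a median of 1.24. Lat (Orc3), Orc6 and geminin were not analysed here. The loader dup rose by 1.51 (SE 0.112) and read 11.85 ± 0.05 (SD, n = 3) in the mutant, against 10.33 ± 0.20 in control discs (limma adjusted p = 0.000116). The origin recognition subunit Orc2 rose by 1.41 (SE 0.114) and Orc4 by 1.26 (SE 0.067), with limma adjusted p-values of 0.000167 and 3.1e-05. In PSC discs Orc4 was the 1 gene of the list that passed, higher by 0.32 (SE 0.067, limma adjusted p = 0.0386). That call was lost without any 1 array of the control or PSC group or without rbf1 3 (adjusted p from 0.0647 to 0.134), and also with the glue mean as a covariate (0.058), in an unmoderated test (0.052) and without the arrays with high glue genes (0.827). Orc1 stood at -0.30 in PSC discs without passing.

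The genes that turn the loaded ring into a helicase ran from -0.020 to 1.73 in the rbf1 mutant. Of the 10 helicase activation genes, all measured, 7 rose in the rbf1 mutant and 0 fell, with a median of 0.81. RecQ4, which aids assembly of the active helicase, had the largest rise of the list, 1.73 (SE 0.108), followed by Mcm10, which acts at initiation, at 1.44 (SE 0.083) and Cdc45 at 1.21 (SE 0.086). Of the 4 GINS subunits, Sld5 rose by 1.21 and Psf3 by 0.79, while Psf2 stood at 0.19 (limma adjusted p = 0.0798) and Psf1 at -0.020 (limma adjusted p = 0.915) without passing. With arrays centred on their medians Psf2 passed at 0.25 (adjusted p = 0.0422) and Psf1 stood at 0.038. The kinase gene Cdc7, whose product phosphorylates MCM subunits, rose by 0.21 (SE 0.048, limma adjusted p = 0.0287), and its partner chif (the fly Dbf4) stood at 0.087 and did not pass. None of the 10 passed in PSC discs, where their median was 0.042.

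Of the 16 replication fork genes 15 were measured, and all 15 rose in the rbf1 mutant, by 0.37 to 1.77 with a median of 0.99. PolD1 was not analysed here. The primase genes Prim2 and Prim1 rose by 1.77 (SE 0.139) and 1.65 (SE 0.100), and PolE1 by 1.45 (SE 0.086), with limma adjusted p-values of 0.000149, 4.68e-05 and 4.35e-05. None of the 15 passed in PSC discs, where their median was 0.15, though 1 was called higher when array weights were used. Beside these lists the 5 MCM2-7 genes had a median of 1.32 and a range of 1.19 to 1.44, and the difference between the lists was not tested. CG3430, which the RefSeq table lists under that symbol alone, was kept as a list of 1 gene and rose by 1.21 (SE 0.104, limma adjusted p = 0.000225) and stood at 0.18 in PSC discs (adjusted p = 0.448).

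Not every relative of the ring rose. The gene rec encodes an MCM8 family protein that acts in meiotic recombination. It averaged 7.28 ± 0.23 in the rbf1 mutant, 7.35 ± 0.09 with PSC and 7.24 ± 0.11 in control (SD, n = 3 each), with a log2 change of 0.040 in the rbf1 mutant (SE 0.114, limma adjusted p = 0.876). The sign of that small value turned under other settings, among them centring on the median of the genes tested. The meiotic MCM genes mei-217 and mei-218 share a probe set, and no value is given for them.

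The genes of the Rbf and E2F proteins had a median change of 0.30 in the rbf1 mutant. Of 4 measured (E2f1 was not analysed here), Rbf2 rose by 0.94 (SE 0.117, limma adjusted p = 0.00152) and Dp, the partner of E2F, by 0.42 (SE 0.068, limma adjusted p = 0.00557). Rbf was lower, as above, and E2f2 stood at 0.19 without passing (limma adjusted p = 0.0753), though it passed with arrays centred on their medians (0.0428). Of 7 measured mitosis genes out of 13, 5 rose and 0 fell, with a median of 0.26. The separase subunit gene thr rose by 0.78, the anaphase activator gene fzy by 0.45 and CycB3 by 0.44, while CycB at 0.26 and pim at 0.21 did not pass. For fzy, which has 3 probe sets, the mean of the sets changed by 0.17 and did not pass (adjusted p = 0.0941), and CycB3 lost its call without rbf1 2 (adjusted p = 0.0554). CycB passed with arrays centred on their medians (adjusted p = 0.0383). The count of 5 was 2 without rbf1 2, 3 without rbf1 3 and 6 with arrays centred. In PSC discs none of the 4 and none of the 7 passed.

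**Figure D4:**
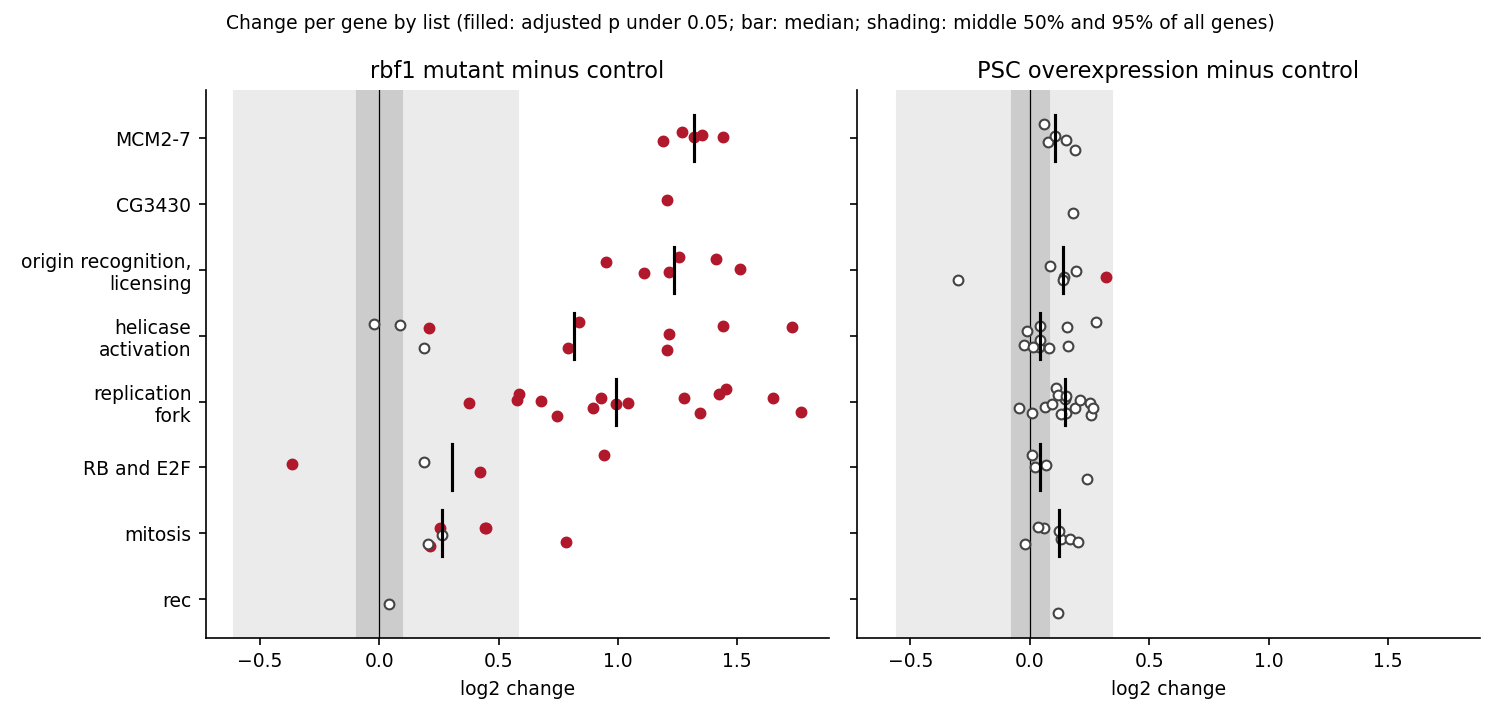
The log2 change of each measured gene is plotted by list, for the rbf1 mutant and for PSC overexpression against control, with filled points where the limma adjusted p is under 0.05, a bar at the list median and shading over the interquartile range and the middle 95% of all genes. The MCM2-7 genes lie at 1.19 to 1.44 in the rbf1 mutant and at 0.060 to 0.19 with PSC.

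The 5 genes lie on the X chromosome (Mcm3, Mcm6) and the arms 2R (dpa) and 3R (Mcm2, Mcm5). In the RefSeq gene order they have 10 immediate protein-coding neighbours, of which 9 were measured. Of these, 2 rose in the rbf1 mutant and 0 fell, and their median change was 0.12. Among all genes 6.31% were called higher and 3.92% lower. The neighbours that rose were RPA1, beside Mcm2, by 0.68 (SE 0.065, limma adjusted p = 0.000375), and CG1620, beside dpa, by 0.36 (SE 0.067, limma adjusted p = 0.0109). RPA1 encodes the large subunit of the single-strand binding protein RPA and is itself a gene of the fork list. The other measured neighbours stood between -0.23 and 0.20, and all 5 members lay above each of their measured neighbours. Over 2 genes on either side, 17 were measured, of which 3 rose and 1 fell. The wider span added XRCC1 near Mcm3, higher by 0.795 (limma adjusted p = 0.0138), and Ctr1A near Mcm6, at -0.40 (limma adjusted p = 0.0136).

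Markers of other cells differed beside these results, and their part in them was not tested. In the rbf1 mutant 3 of 6 haemocyte markers fell, namely NimC2, PPO1 and PPO2 at -1.08, -1.25 and -1.10, where 3.92% of all genes were called lower. The others, NimC1 (-0.56), Hml (0.027) and He (0.018), did not pass. The mean of the list was 9.01 to 9.43 on rbf1 arrays and 9.63 to 10.01 on control arrays. The glial gene repo was the 1 of 4 glial markers that rose, by 0.52, and toy the 1 of 8 eye disc markers that fell, by 0.24. In PSC discs repo rose by 0.23 and the neuroblast gene mira by 0.70, and ase fell by 0.95. None of 6 glue genes, 3 fat body, 4 neuroblast or 3 germline markers passed in the rbf1 mutant against control. Against PSC discs, the rbf1 mutant was lower for the eye disc markers ato (-0.52) and dac (-0.49). It was also lower for NimC1 (-0.84), PPO1 (-1.97), PPO2 (-1.94), Fbp2 of the fat body (-2.21), dpn (-0.35) and bam (-0.49). Higher were repo (0.29) and ase (1.18), and the other markers did not pass. Without the 5 arrays whose glue mean was above 10, which left 2 rbf1 arrays, 1 PSC array and 1 control array, all 5 members were still called higher in the rbf1 mutant. Their log2 changes were then 1.17 to 1.44 (limma adjusted p from 0.0247 to 0.0289). That fit took its spread from the 2 rbf1 arrays alone and assumed that the lone control and PSC arrays varied like them. It called 134 genes in all, among them as higher 0 mitosis genes, 7 fork genes and 4 activation genes.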

How the data were processed

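The authors deposited 1 log2 intensity per probe set and array, computed with RMA, per the submitters' processing notes. Of 18952 probe sets, 183 control sets were left out, and 13647 were annotated to 1 gene. For the 1094 genes with several sets the set of the highest mean over the 9 arrays was kept, which left 11983 genes. Each member had 1 set. Current symbols came from a RefSeq gene table (Release 6 plus ISO1 MT), which matched 11894 gene identifiers.

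All 9 arrays entered 1 limma 3.58.1 fit with a mean per group (R 4.3.3, 6 residual degrees of freedom, eBayes defaults). P-values were adjusted over the 11983 genes by Benjamini-Hochberg, and genes under 0.05 were called. Standard errors and 95% intervals are limma's moderated ones. The number of arrays limits the precision. The steps were tested on simulated data. The list genes named in the text are the 3 of each list with the largest change in the rbf1 mutant, plus those on the other side of the threshold from most of the list. Cdc7, Sld5, Psf3, Orc1 in PSC discs, the neighbours and the markers were named after their values were seen. The members and lists were chosen with earlier results of these data known. Figures were drawn with matplotlib 3.10.9.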

Additional observations from a re-analysis of the deposited data

How the results depend on the processing

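The count of members called (5 in rbf1 mutant against control, 0 in PSC overexpression against control, 5 in rbf1 mutant against PSC) was the same under all 23 alternatives. The 3 chosen after seeing the data were leaving out the 5 arrays with high glue genes, testing all probe sets, and centring on the median of the genes tested. Leaving out 1 array at a time, the median member change was 1.24 to 1.40, 0.0016 to 0.21 and 1.09 to 1.29. With the replicate number as a block 5, 0 and 5 members were called. Same-numbered arrays of different groups had correlations of their deviations from -0.44 to 0.59, and arrays of unlike number from -0.62 to 0.62. Whether the numbers pair the arrays was not tested. All genes called were 1306, 426 and 1315 with the block. In the rbf1 mutant Psf2 (adjusted p = 0.0346), E2f2 (0.0366), CycB (0.0218) and pim (0.0307) passed with the block, so that 8 activation, 3 RB and E2F and 7 mitosis genes were called higher, and in PSC discs the Orc4 call was lost (0.0597).

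Small values turned sign. In PSC discs these were Mcm3 (-0.019) and Mcm5 (-0.043) without control 3, Mcm5 without PSC 2 (-0.022) and Mcm2 without the high glue arrays (-0.0051). Leaving out 1 array at a time, Mcm5 in PSC discs ran from -0.043 to 0.17, and in the rbf1 mutant Psf1 ran from -0.066 to 0.033 and rec from -0.087 to 0.13. The others, in the rbf1 mutant, were chif with the most variable probe set (-0.052), Psf1 with arrays centred (0.038) or without control 1 (0.030) or rbf1 3 (0.033), and rec with the glue covariate (-0.0096), without control 3 (-0.023), rbf1 1 (-0.087) or the high glue arrays (-0.024), or with genes centred (-0.0019). The Rbf call held in 12 alternatives. Psf2, E2f2 and CycB also passed among genes above the median level (0.0408, 0.0376 and 0.0327). With trend and robust settings E2f2 (0.0445) and CycB (0.0218) passed, and CycB passed with array weights (0.0438) and without PSC 3 (0.0419). CycB3 (0.0527) and Dp (0.0505) lost their calls in the unmoderated test.

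Counts over all genes moved more: 1226, 455 and 1266 genes were called, and 481, 37 and 608 by the unmoderated test, 134, 27 and 175 without the high glue arrays. In the rbf1 mutant 787 genes were called without rbf1 2. In PSC discs 275 were called with only the arrays compared, and 250 to 289 without control 1, control 2, PSC 1 or PSC 2. Between rbf1 mutant and PSC discs 843 were called without PSC 1 or rbf1 2. Without the high glue arrays 0 RB and E2F genes were called higher in the rbf1 mutant, and the unmoderated test called 1 of them and 2 mitosis genes. The share of calls that were higher in the rbf1 mutant was 61.7%, but 77.3% with arrays centred on all probe sets and 48.1% on the genes tested, against PSC 65.4%, 72.3% and 43.7%. The cause was not tested.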
